A study of Bos taurus with 12 samples.

Results

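The genes described are those of the endoplasmic reticulum (ER) chaperones and the unfolded protein response in the bovine mammary gland (MG). A list of 10 genes was taken by name: HSPA5, HSP90B1, CALR, PDIA4, DNAJB9, DNAJC3, HERPUD1, XBP1, ATF6 and ERN1. Array probes were assigned to a gene when the RefSeq accession printed with the probe belonged to that gene in the bovine RefSeq table. In this way 8 of the 10 genes were found, with 22 of the 43653 probes measured, and 12639 genes were named in all. ATF6 and ERN1, which code for stress sensors in the ER membrane, matched no probe by accession and were not analysed here.

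The MG of 12 Holstein cows in early lactation was sampled by biopsy, and these cows were kept from a larger trial for the quality of their RNA. The 6 control cows (CONT) had free access to a lactation diet and the 6 restricted cows (REST) were fed for 4 days a ration in which barley straw made up 48% of dry matter, from 24 ± 3 days in milk. Every cow, in both groups, had 50 µg of Escherichia coli lipopolysaccharide (LPS) infused into a healthy rear gland on day 3 of the diets, and the biopsy was taken 24 h later. All values therefore come from challenged tissue, no unchallenged gland was measured, and the groups compared differ in diet and not in challenge. A total of 100 ng of RNA per cow was labeled with Cy3 and hybridized to a one-color Agilent 44K array, with 1 cow per array and 4 arrays on each of 3 slides. The diets were not spread evenly, with 3 CONT arrays and 1 REST array on slide 1 and 1 CONT array and 3 REST arrays on slide 2.

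The ER is where secreted and membrane proteins are folded, glycosylated and joined by disulfide bonds, and the secretory cells of the lactating gland pass the milk proteins through it. When unfolded proteins accumulate, HSPA5 leaves the sensors ERN1 (IRE1), ATF6 and EIF2AK3 (PERK), and these sensors start the unfolded protein response. ERN1 splices the mRNA of XBP1, ATF6 is cut to release a transcription factor and EIF2AK3 slows translation, and together these arms raise the transcription of chaperones, folding enzymes and the machinery that returns misfolded proteins to the cytosol for degradation.

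Values are the log2 of the processed spot signal minus the log2 of the same array's 75th percentile, so that 0 is the signal at that percentile and a step of 1 is a doubling. A level is read only against the same probe in other cows, because different probes do not share a scale. Where a gene had several probes, it is represented by the brightest of them on average over the 12 arrays. All 22 probes were well above background on the 12 arrays and none was saturated. The 75th percentile lay at intensities from 577.1 to 1184 in CONT and from 386.9 to 1082 in REST, correlations between arrays were 0.9323 to 0.9841 over all probes, and the number of arrays limits the precision. Negative control spots gave 37.7 to 58.2 on slide 1, which held 3 CONT arrays and 1 REST array, against 17.4 to 19.96 on the other slides. The milk-secreting epithelium of the labelled tissue was present in every biopsy, since 7 of 8 listed markers (caseins, α-lactalbumin, β-lactoglobulin, BTN1A1 and XDH) were matched and all 7 were well above background on the 12 arrays.

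The diet groups did not separate for any of the genes. None of the 22 probes passed an adjusted p of 0.05 (limma's moderated test over all probes, lowest Westfall-Young adjusted p = 1, lowest Benjamini-Hochberg adjusted p = 0.9999), and 0.0% of the 43653 probes did. An unadjusted limma p under 0.05 was reached by 0 of the 22 probes, where 2.62% of all probes reached it, and the lowest value was 0.3068. The groups overlapped at each of the 22 probes, whereas they did not at 0.128% of all probes. Exact permutation tests of single probes gave no two-sided p below 0.305, with 0.00216 the smallest p that 6 against 6 cows allow. The mean was higher in REST for 2 of the 8 genes and lower for 6, while 43.5% of all named genes had a higher mean in REST. The median log2 difference (REST minus CONT) of the 8 genes was −0.18, against −0.03 over all named genes. With slide as a block in the fit, the median of the 8 genes was −0.06 and 3 of them were higher in REST, against 0.01 and 52.4% over all named genes.

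**Figure D1:**
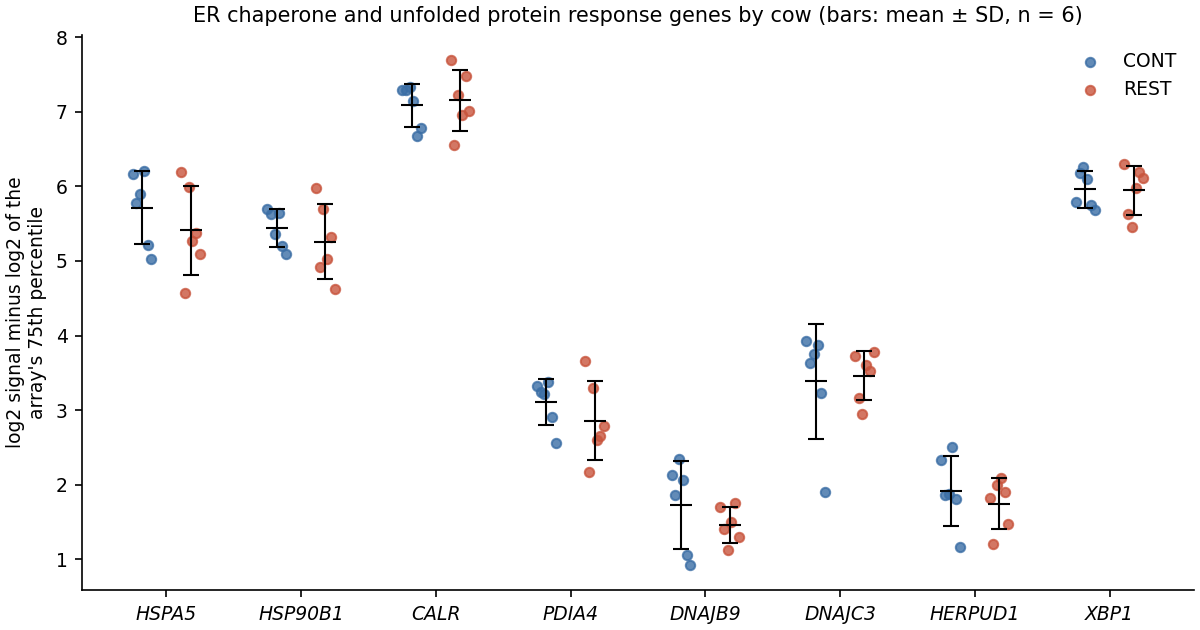
Log2 signal relative to the array's 75th percentile (y axis) for the 8 genes (x axis) in each cow, CONT in blue and REST in red, with mean ± SD (n = 6 per group) in black. Each gene is shown by its brightest probe, and heights should not be compared between genes. The groups overlap for every gene, and the CONT cow at 1.90 for DNAJC3 lies below the other 5 CONT cows, which start at 3.23.

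HSPA5 (NM_001075148) codes for BiP, the main Hsp70 chaperone of the ER lumen, which also holds the stress sensors inactive. Its log2 level ran from 5.03 through a median of 5.84 to 6.20 in CONT, and from 4.57 through a median of 5.32 to 6.19 in REST. The highest values, 6.20 in CONT cow 4 and 6.19 in REST cow 1, came from different diets, and so did the lowest, 4.57 in REST cow 2 and 5.03 in CONT cow 6. Means were 5.71 ± 0.49 in CONT and 5.41 ± 0.60 in REST (SD, n = 6). The log2 difference of −0.30 (SE 0.30, 95% interval −0.96 to 0.35) corresponds to 0.811-fold and was not past the test (limma, Westfall-Young adjusted p = 1, and exact permutation p = 0.364). The other 3 HSPA5 probes differed by −0.25, −0.21 and 0.06, and the last of these has the lowest mean signal of the 4. Correlations between the 4 probes over the 12 cows were 0.8156 to 0.976.

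HSP90B1 (NM_174700) codes for GRP94, the Hsp90 chaperone of the ER, and had a single probe. Log2 levels were 5.10 to 5.70 in CONT, with a median of 5.50, and 4.62 to 5.97 in REST, with a median of 5.17. Both extremes belonged to REST, with cow 6 lowest and cow 1 highest. The means of 5.44 ± 0.25 and 5.26 ± 0.51 (SD, n = 6) differed by −0.18 (SE 0.23, 95% interval −0.68 to 0.33), with an exact permutation p of 0.45.

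CALR (NM_174000) codes for calreticulin, a lectin chaperone that binds newly glycosylated proteins and calcium, and it was represented by 6 probes. At the probe that stands for it, log2 levels were 6.67 to 7.33 in CONT, with a median of 7.22, and 6.55 to 7.69 in REST, with a median of 7.12. The difference was 0.07 (SE 0.21, 95% interval −0.39 to 0.52, exact permutation p = 0.758). The differences at the 6 probes were narrow, −0.06 to 0.07, with 5 of them above 0. Leaving out CONT cow 5, REST cow 1 or REST cow 5 turned the sign of the difference, which was then −0.04 at the lowest.

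PDIA4 (NM_001045879) codes for ERp72, a disulfide isomerase that forms and rearranges disulfide bonds. Its log2 levels were 2.57 to 3.38 in CONT, with a median of 3.23, and 2.17 to 3.66 in REST, with a median of 2.72. REST cow 1 and REST cow 3 were at 3.66 and 3.30, near the upper CONT cows, and the other 4 REST cows lay between 2.17 and 2.79. The difference was −0.25 (SE 0.25, 95% interval −0.79 to 0.30, exact permutation p = 0.346), but the direction was not shared by the other 2 probes, at 0.18 and 0.11. Their mean signals were below the 75th percentile of the arrays, and the 3 probes correlated at 0.659 to 0.8203.

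DNAJB9 and DNAJC3 are J-domain proteins, which stimulate the ATPase of HSPA5. DNAJB9 (ERdj4, NM_001193039) had log2 levels of 0.93 to 2.34 in CONT, with a median of 1.96, and 1.12 to 1.75 in REST, with a median of 1.45. The CONT cows held both extremes, with 4 of them at or above 1.87, higher than every REST cow, and the remaining pair at 1.06 and 0.93, lower than every REST cow. The means of 1.73 ± 0.59 in CONT and 1.46 ± 0.24 in REST (SD, n = 6) differed by −0.27 (SE 0.26, 95% interval −0.83 to 0.29, exact permutation p = 0.316).

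DNAJC3 (p58IPK, NM_174756), which is also known as an inhibitor of EIF2AK3, had log2 levels of 1.90 to 3.93 in CONT, with a median of 3.70, and 2.95 to 3.78 in REST, with a median of 3.57. CONT cow 6 was at 1.90 and the other CONT cows at 3.23 to 3.93. The difference of 0.07 (SE 0.32, 95% interval −0.63 to 0.78, exact permutation p = 0.89) was −0.22 without CONT cow 6.

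HERPUD1 (NM_001102265) codes for a membrane protein of the complex that carries out ER-associated degradation. Its log2 levels were 1.16 to 2.50 in CONT, with a median of 1.87, and 1.21 to 2.09 in REST, also with a median of 1.87. The lowest cows of both groups, CONT cow 6 and REST cow 2, were those with the lowest HSPA5 in their group. The difference at the probe that stands for the gene was −0.17 (SE 0.24, 95% interval −0.69 to 0.34, exact permutation p = 0.47), and all 3 probes were lower in REST, by −0.17 to −0.27.

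XBP1 (NM_001034727) codes for the transcription factor of the ERN1 arm. The array signal was not divided into the unspliced and spliced mRNA, so that the values describe the amount of XBP1 mRNA and not its splicing. Log2 levels were 5.68 to 6.27 in CONT, with a median of 5.95, and 5.45 to 6.30 in REST, with a median of 6.05. The means, 5.96 ± 0.25 and 5.95 ± 0.33 (SD, n = 6), differed by −0.02 (SE 0.19, 95% interval −0.42 to 0.39, exact permutation p = 0.942). The 3 probes gave −0.08 to 0.00, and the sign turned under several settings, with 0.05 when slide was a block.

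**Figure D2:**
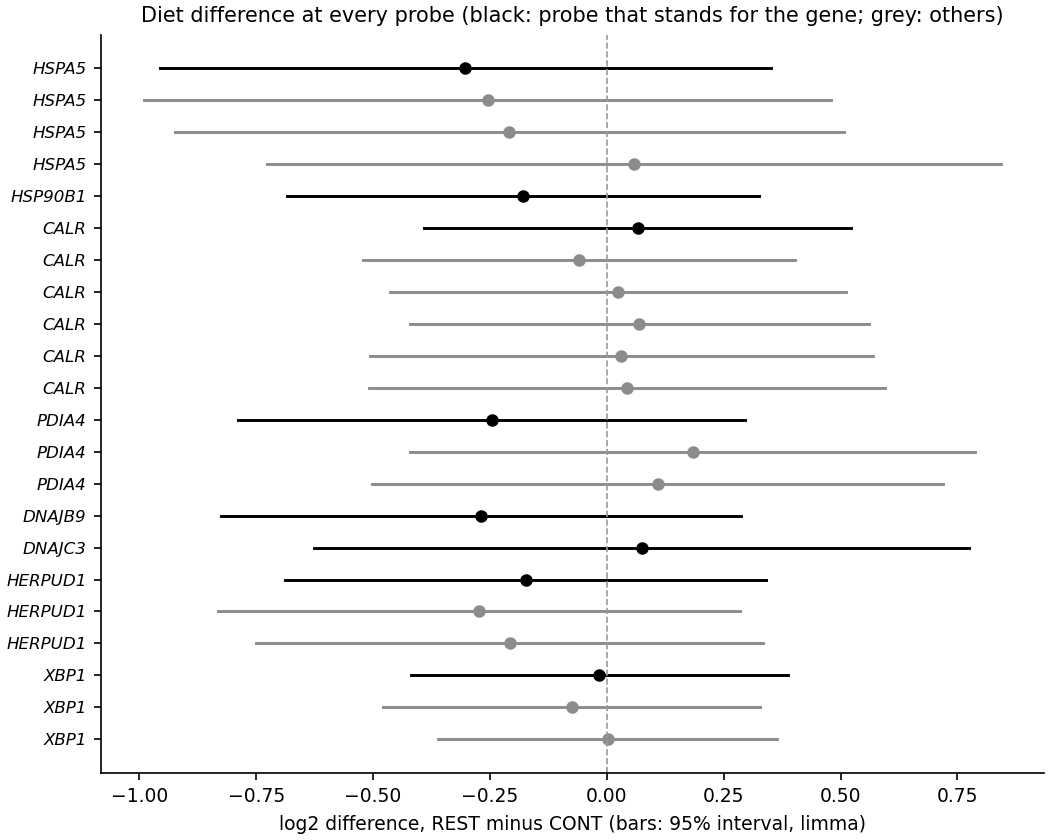
Log2 difference between REST and CONT (x axis) for each of the 22 probes (rows, named by gene), with the 95% interval of limma, where the probe that stands for a gene is black and its other probes are grey. Every interval includes 0, and the points lie between −0.30 and 0.18.

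Over the 22 probes the widest limits of the 95% intervals were −0.99 and 0.84, that is 0.5035-fold and 1.794-fold, both at secondary probes of HSPA5. At the probes that stand for the genes, the intervals were 0.7476-fold to 1.308-fold for XBP1 and 0.7625-fold to 1.437-fold for CALR. They were 0.5155-fold to 1.276-fold for HSPA5 and 0.6478-fold to 1.711-fold for DNAJC3. Over the 6 CALR probes the widest limits were 0.6968-fold and 1.51-fold. Leaving out single cows moved the log2 difference of HSPA5 between −0.46 (without REST cow 1) and −0.13 (without REST cow 2), that of HSP90B1 between −0.32 (without REST cow 1) and −0.05 (without REST cow 6), and that of PDIA4 between −0.41 (without REST cow 1) and −0.11 (without REST cow 2). DNAJB9 moved between −0.43 (without CONT cow 6) and −0.15 (without CONT cow 3), and HERPUD1 between −0.33 (without CONT cow 6) and −0.06 (without CONT cow 4). The direction of these 5 genes was kept when single cows were left out. With slide as a block it was kept at −0.16 for HSPA5, −0.07 for HSP90B1, −0.05 for PDIA4, −0.33 for DNAJB9 and −0.16 for HERPUD1. It was not kept for PDIA4 as the mean over its probes, at 0.0155. From cow to cow, the highest exceeded the lowest by 1.8-fold for XBP1 and by 4.071-fold for DNAJC3, with the other genes in between. The SD within groups was 0.5917 for DNAJC3 and 0.5466 for HSPA5, above those of 80.9% and 77.4% of the 9083 genes that were well above background on all arrays. XBP1, with 0.2938, exceeded 40.9% of them. Slides did not give the same picture. On slide 1, with REST cow 1 against 3 CONT cows, 7 of the 8 genes were higher in REST (−0.23 to 0.65). On slide 2, with CONT cow 1 against 3 REST cows, 1 of the 8 was higher in REST (−1.10 to 0.14). Slide 3, with 2 cows of each diet, gave 5 of 8 (−0.43 to 0.54). HSPA5 differed by 0.46, −1.10 and 0.08 on the 3 slides.

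Some of the genes varied together from cow to cow, above all HSPA5, PDIA4 and HSP90B1. Over the 12 cows, all 28 pairs of the 8 genes had a Pearson r above 0 (0.1669 to 0.9513, median 0.6117), and 8 pairs were past a Benjamini-Hochberg adjusted p of 0.05 over the 28 pairs (two-sided permutation test). The share that passes among pairs of other genes was not computed. For the 8 pairs, 0.00797% (HSPA5 and PDIA4) to 2.48% (DNAJB9 and DNAJC3) of named genes had a higher r with the first gene. These correlations share arrays, scaling and slides, and the points are cows, not conditions. The closest pair was HSPA5 and PDIA4 (r = 0.9513, permutation p = 4e-05, adjusted p = 0.00112, rho = 0.9301, permutation p = 5e-05). HSPA5 and HSP90B1 followed (r = 0.8747, permutation p = 0.00039, adjusted p = 0.00546, rho = 0.9021, permutation p = 0.00018), and HSP90B1 and PDIA4 (r = 0.8365, permutation p = 0.00095, adjusted p = 0.00887, rho = 0.8881, permutation p = 0.00035). These 3 pairs were also past the threshold without the 2 cows farthest from the median of the first gene, at r = 0.9231, 0.8885 and 0.9237, and after subtraction of the slide means, at 0.9732, 0.8704 and 0.846. A slide held 4 cows, too few for a correlation of its own.

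**Figure D3:**
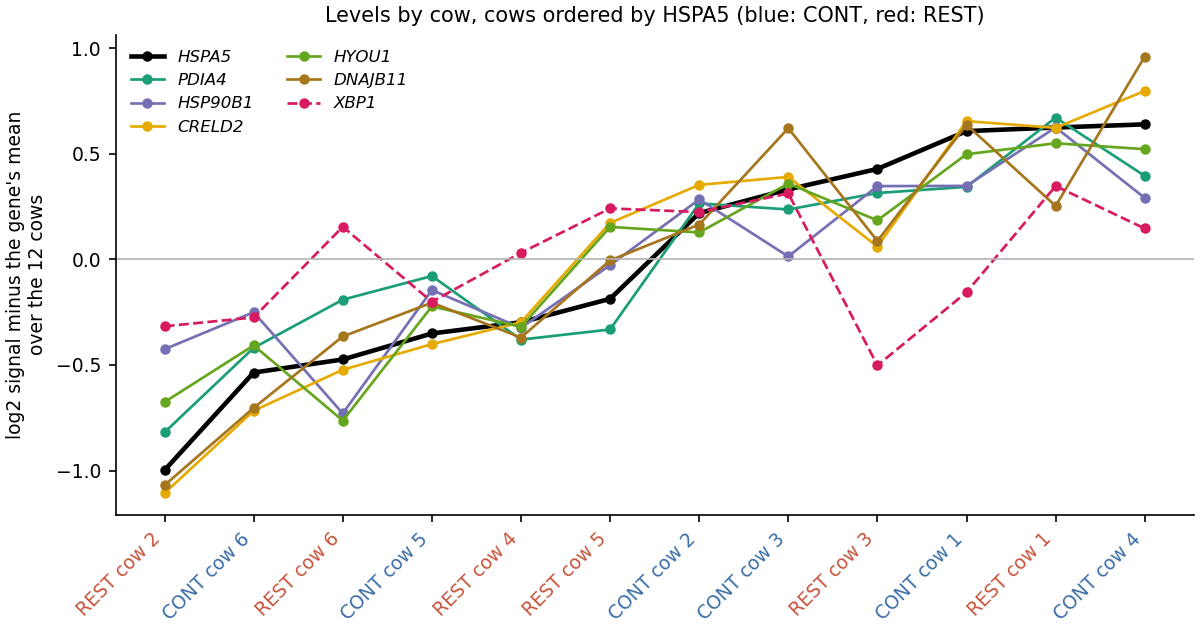
Log2 signal minus the gene's own mean over the 12 cows (y axis) for HSPA5, PDIA4, HSP90B1, CRELD2, HYOU1, DNAJB11 and XBP1 (lines), with the cows on the x axis ordered by HSPA5 and their labels colored by diet. The folding genes run from low in REST cow 2 and CONT cow 6 to high in CONT cow 1, REST cow 1 and CONT cow 4, with both diets along the whole order. HSP90B1 and HYOU1 are lowest in REST cow 6. XBP1 (dashed) departs from the folding genes in some cows, such as REST cow 6, REST cow 3 and CONT cow 1.

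The other 5 pairs past the threshold were HSPA5 and HERPUD1 (r = 0.7887, permutation p = 0.00179, adjusted p = 0.01, rho = 0.7552, permutation p = 0.00627), HSPA5 and CALR (r = 0.7771, permutation p = 0.00295, adjusted p = 0.0138, rho = 0.6923, permutation p = 0.0156), DNAJB9 and DNAJC3 (r = 0.7444, permutation p = 0.00139, adjusted p = 0.00973, rho = 0.7552, permutation p = 0.00621), CALR and PDIA4 (r = 0.7342, permutation p = 0.00686, adjusted p = 0.0274, rho = 0.6154, permutation p = 0.0367), and HSP90B1 and CALR (r = 0.7054, permutation p = 0.0105, adjusted p = 0.0368, rho = 0.6853, permutation p = 0.0164). The adjusted Spearman p was not past the threshold for the 3 pairs with CALR (0.0574 with HSPA5, 0.0574 with HSP90B1 and 0.0844 with PDIA4) and was 0.0293 for each of the other 2 pairs. Without the 2 farthest cows, none of the 5 was past the threshold over the 10 cows that remained, while r was 0.6439 for HSPA5 and HERPUD1, 0.749 for HSPA5 and CALR, 0.7696 for DNAJB9 and DNAJC3, 0.6525 for CALR and PDIA4, and 0.7174 for HSP90B1 and CALR. The r of XBP1 was 0.3335 with HSPA5 (permutation p = 0.285, adjusted p = 0.319, rho = 0.3986, permutation p = 0.2, r = 0.1235 without the 2 farthest cows), 0.3582 with PDIA4 (permutation p = 0.248, adjusted p = 0.289, rho = 0.3636, permutation p = 0.245, r = −0.013 without the 2 farthest cows) and 0.1669 with HSP90B1 (permutation p = 0.601, adjusted p = 0.601, rho = 0.2517, permutation p = 0.428, r = 0.1407 without the 2 farthest cows). It was 0.6383 with DNAJB9, 0.635 with DNAJC3 and 0.6324 with CALR (adjusted permutation p = 0.0627, 0.0507 and 0.0627), and by rank the pair with CALR was past the threshold (rho = 0.7692, adjusted permutation p = 0.0293). With group means subtracted, r was 0.6619, 0.6389 and 0.6391 in the same order (adjusted permutation p = 0.0457, 0.0442 and 0.0577). Without the 2 farthest cows it was 0.5096, 0.5625 and 0.5076 (adjusted permutation p = 0.202, 0.169 and 0.202). Whether the correlations of XBP1 differ from those of HSPA5 was not tested.

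**Figure D4:**
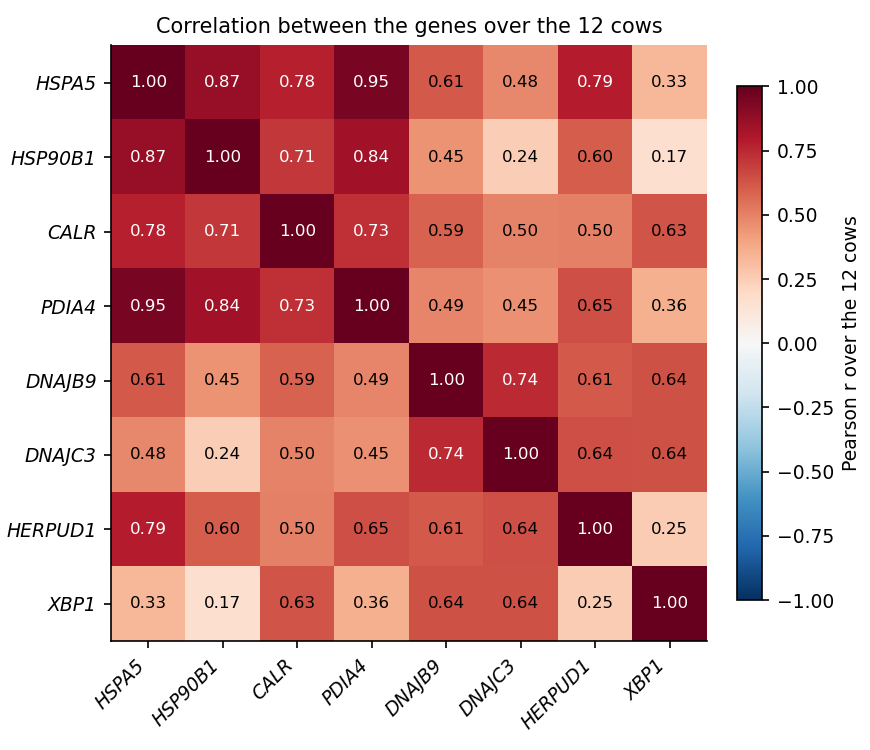
Pearson r over the 12 cows for each pair of the 8 genes, printed in the cells and colored from −1 (blue) to 1 (red). The pairs among HSPA5, HSP90B1, CALR and PDIA4 lie at 0.71 to 0.95, HSPA5 with HERPUD1 at 0.79 and DNAJB9 with DNAJC3 at 0.74, and the lowest value is that of XBP1 with HSP90B1 (0.17).

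Of the 12550 other named genes with a value on every array, the 5 with the highest Pearson r with HSPA5 over the 12 cows were CRELD2 (0.9556), PDIA4 (0.9513), HYOU1 (0.9342), DNAJB11 (0.9241) and CISD2 (0.8922). The median r over all these genes was 0.06964. CRELD2 is a disulfide isomerase of the ER induced by stress, HYOU1 (GRP170) exchanges the nucleotide of HSPA5, DNAJB11 (ERdj3) is another of its J-domain partners, and CISD2 is an iron-sulfur protein of the ER and the outer mitochondrial membrane. The 5 genes were chosen for their r, which is a description without a test. The same 5 held ranks 1 to 5 after subtraction of slide means and of group means. Without the 2 cows farthest from the median of HSPA5, their r was 0.8113 to 0.9231. The list depends on the probe, since 2 of the other HSPA5 probes each shared 4 of the 5 genes and the dimmest probe shared 0, with the 5 genes within its first 96 ranks. MANF, a chaperone-like secreted factor of the ER, was outside this ranking because its spot was an outlier on 1 array. Over the other 11 cows its r with HSPA5 was 0.9756.

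None of the genes closest to HSPA5 had a diet difference past the test. CRELD2 was 3.05 ± 0.60 in CONT and 2.69 ± 0.60 in REST (SD, n = 6), a log2 difference of −0.36 (SE 0.33, 95% interval −1.07 to 0.36). HYOU1 differed by −0.29 (SE 0.26, 95% interval −0.86 to 0.27) and DNAJB11 by −0.49 (SE 0.30, 95% interval −1.15 to 0.17). The values of CISD2 and MANF were −0.26 (SE 0.21) and −0.25 (SE 0.36).

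For XBP1, the highest r values were those of ERP44 (0.8751), a thioredoxin-like protein that retains unassembled clients in the early secretory pathway, GABRA3 (0.865), CIAO2A (0.8471), GGH (0.8424) and ZNF511 (0.8338), against a median of 0.07145 over all genes. These 5 genes were also chosen for their r, without a test. GABRA3 was well above background on 0 of the 12 arrays. After subtraction of slide means, the 5 genes held ranks 4, 3, 22, 10 and 24 in the order named. After subtraction of group means they held ranks 1 to 5. Without the 2 cows farthest from the median of XBP1, their r was 0.7206 to 0.8057. Each of the other XBP1 probes shared 1 of these 5 genes among its own first 5, while all 5 were within the first 30 ranks at the one probe and within the first 390 at the other. HSPA5 and XBP1 had no gene in common among their 5.

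Other genes of the pathway were taken from 5 lists, none of which had a member past an adjusted p or an unadjusted limma p of 0.05. Of the ER folding machinery, 19 of 21 genes were matched, 7 with a higher mean in REST and 12 with a lower one (median log2 difference −0.08), between −0.49 for DNAJB11 and 0.53 for ERO1B, an oxidase that recharges the disulfide isomerases. Its probe exceeded background clearly in only 2 cows of CONT and 3 of REST, and the difference was −0.03 with slide as a block. The block left 6 of the 19 genes higher in REST (median −0.05). The disulfide isomerase PDIA3 was 3.03 ± 0.15 in CONT and 2.95 ± 0.43 in REST (SD, n = 6), a difference of −0.08 (SE 0.20) that was 0.05 with slide as a block, and the cyclophilin PPIB differed by −0.14 (SE 0.17). FKBP2, a prolyl isomerase, had the lowest limma p of the list, with a log2 difference of 0.35 (SE 0.17), and was named after its value was seen. All 19 listed genes of ER-associated degradation were matched, 8 higher and 11 lower (median −0.03), from −0.28 for SELENOS, a membrane partner of the degradation complex, to 0.23 for DERL3, a derlin of the same complex. With slide as a block 5 were higher (median −0.10).

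Protein translocation and N-glycosylation had 21 of 23 genes matched, 5 higher and 16 lower in REST (median −0.07), from −0.27 for SEC61G, a subunit of the translocation channel, to 0.10 for SSR3, a subunit of the translocon-associated complex. With slide as a block 3 were higher (median −0.15), and SSR3 was at −0.13. The oligosaccharyltransferase subunits RPN1 and RPN2 differed by −0.0027 (SE 0.17) and 0.09 (SE 0.17), and GANAB, the catalytic subunit of glucosidase II, by −0.10 (SE 0.22), or −0.22 with slide as a block. The EIF2AK3 arm had 6 of 7 genes matched, 1 higher and 5 lower (median −0.15), from −0.21 for EIF2AK3 itself to 0.41 for TRIB3, a stress-induced pseudokinase, which was at 0.12 with slide as a block. Sensor partners and related factors had 10 of 13 matched, 1 higher and 9 lower (median −0.11), from −0.26 for NFYB, a subunit of the CCAAT-binding factor NF-Y, to 0.05 for ATF6B, the paralogue of ATF6. The block gave 2 genes higher in each of these 2 lists, with medians of −0.12 and −0.16.

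The genes of each list that followed HSPA5 were counted. A Pearson r of 0.5 or more with HSPA5 over the 12 cows was found for 7.15% of all named genes. In the folding machinery it was found for 9 of the 18 genes with a value on every array (median r 0.5383), in ER-associated degradation for 4 of 19 (median 0.1828), in translocation and N-glycosylation for 3 of 20 (median 0.2571), in the EIF2AK3 arm for 2 of 6 (median 0.07925) and among sensor partners for 1 of 10 (median 0.1119). With XBP1, where 10.2% of all named genes reached this r, the counts were 5 of 18, 7 of 19, 10 of 20, 0 of 6 and 3 of 10 in the same order. These counts are descriptions of lists whose genes share arrays, and no difference between lists was tested.

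**Figure D5:**
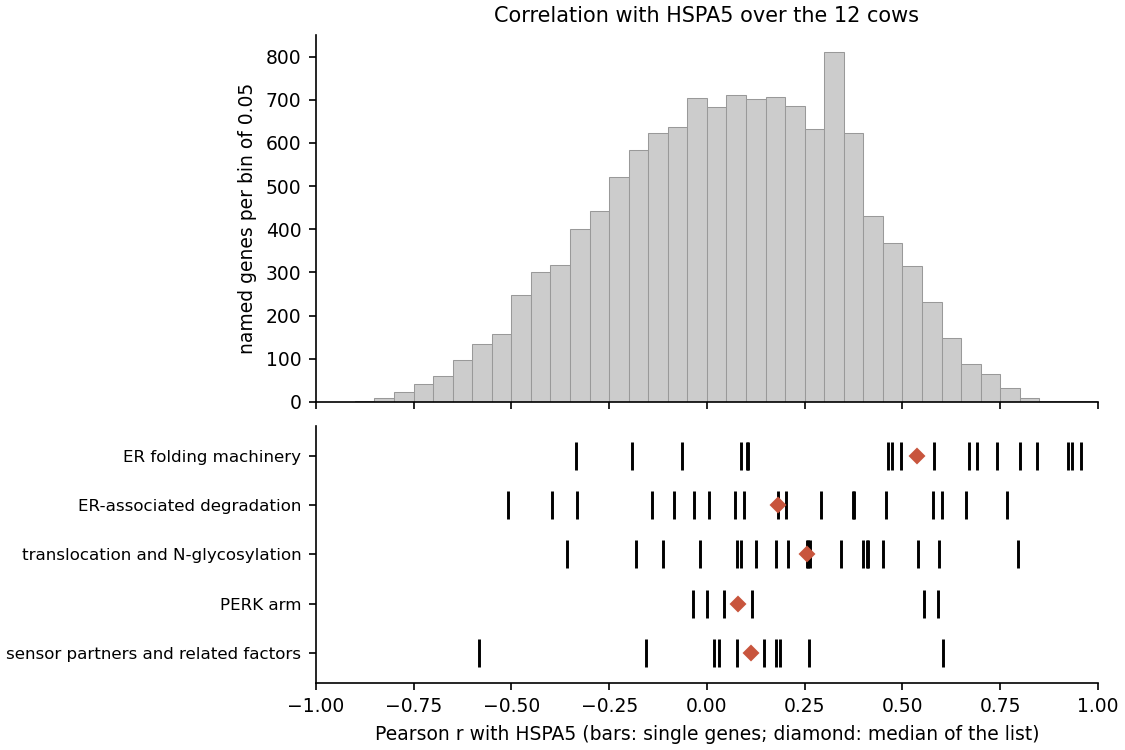
Pearson r with HSPA5 over the 12 cows (x axis): the number of named genes per bin of 0.05 (top) and the genes of the 5 pathway lists as bars with the list's median as a diamond (bottom). The median of the folding machinery lies at 0.5383, and the medians of the other lists lie between 0.07925 and 0.2571.

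Biopsies hold many cell types, and a gene that is lower can reflect fewer cells of a type or less RNA per cell, which cannot be told apart. Fibroblast markers were lower in REST for 5 of 5 genes (median log2 difference −0.65, from −0.84 for LUM to −0.38 for DCN), with 3 at an unadjusted limma p under 0.05, which 2.62% of all probes reached, and none past an adjusted p. With slide as a block 5 of 5 were lower, with a median of −0.39. Their summed level, in units of the array's 75th percentile, was 48.5 to 65.99 in CONT and 22.5 to 67.3 in REST. Over the 12 cows their mean log2 level had r = 0.6187 with HSPA5 (permutation p = 0.0314, adjusted p = 0.304 over 28 relations, rho = 0.2797, permutation p = 0.38, r = 0.3294 without the 2 farthest cows). Milk-secreting epithelium markers had a higher mean in REST for 7 of 7 genes (median 0.35, from 0.19 for LALBA to 0.42 for PAEP), with 0 under an unadjusted limma p of 0.05. With slide as a block 5 of 7 were higher (median 0.12) and LALBA was at −0.15. The markers had summed levels of 1582 to 5008 in CONT and 2308 to 6637 in REST, and r = −0.2329 with HSPA5 (permutation p = 0.466, adjusted p = 0.725, rho = −0.2378, permutation p = 0.459, r = −0.337 without the 2 farthest cows).

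Endothelial markers were higher in REST for 3 of 3 genes (median 0.55, from 0.37 for PECAM1 to 0.79 for VWF, with 1 under an unadjusted limma p of 0.05 and summed levels of 1.77 to 7.56 in CONT and 5.81 to 11.01 in REST), and r = 0.2888 with HSPA5 (permutation p = 0.396, adjusted p = 0.685, rho = 0.1538, permutation p = 0.633, r = −0.1365 without the 2 farthest cows). Plasma cells, which also carry a large ER, had markers higher in REST for 5 of 8 genes (median 0.14, from −0.38 for SDC1 to 0.94 for POU2AF1), 1 of them under an unadjusted limma p of 0.05, summed levels of 7.02 to 15.5 in CONT and 6.65 to 11.01 in REST, and r = −0.1512 with HSPA5 (permutation p = 0.64, adjusted p = 0.839, rho = −0.2098, permutation p = 0.514, r = −0.4081 without the 2 farthest cows). Neutrophil markers were higher for 3 of 5 genes (median 0.19, or 0.29 with slide as a block, from −0.19 for CXCR2 to 0.31 for S100A8), with 0 under an unadjusted limma p of 0.05, summed levels of 19.6 to 172.6 in CONT and 6.00 to 193.8 in REST, and r = 0.5158 with HSPA5 (permutation p = 0.0849, adjusted p = 0.475, rho = 0.4056, permutation p = 0.193, r = 0.4933 without the 2 farthest cows). Another 5 marker lists gave these values. Macrophage markers were higher in REST for 3 of 4 genes (from −0.35 for CSF1R to 0.85 for CD163, summed levels 7.48 to 16.5 in CONT and 4.55 to 22.2 in REST), and HSPA5 had r = 0.4102 with them (permutation p = 0.185, adjusted p = 0.608, rho = 0.5455, permutation p = 0.0708, r = 0.6914 without the 2 farthest cows). Adipocyte markers were higher for 3 of 4 genes (from −1.02 for LEP to 1.205 for FABP4, summed levels 7.43 to 163.6 in CONT and 100.3 to 242.3 in REST), and 1 of the 4 was well above background on all 12 arrays. LEP was so in 4 cows of CONT and 1 of REST, and its difference was −0.39 with slide as a block. T cell markers were higher for 2 of 4 genes, or 3 with slide as a block (from −0.22 for CD8A to 0.60 for CD3D, summed levels 12.2 to 19.9 and 13.5 to 30.4). Luminal epithelium markers were higher for 2 of 4 genes (from −0.49 for KRT18 to 0.10 for ELF5, summed levels 106.5 to 167.0 and 105.6 to 179.4) and myoepithelium markers for 1 of 5, or 2 with slide as a block (from −0.50 for OXTR to 0.01 for KRT14, summed levels 78.9 to 202.2 and 72.9 to 115.1). Of these 5 lists, 1 T cell marker had an unadjusted limma p under 0.05 and none an adjusted one, and in none of the 10 lists was a matched marker below background on every array. XBP1 had r = 0.6127 with the adipocyte markers (permutation p = 0.0315, adjusted p = 0.304, rho = 0.5874, permutation p = 0.0488, r = 0.602 without the 2 farthest cows). With the myoepithelium markers its r was −0.5909 (permutation p = 0.0434, adjusted p = 0.304, rho = −0.5455, permutation p = 0.0719, r = −0.5895 without the 2 farthest cows). With the share of probes well above background it was −0.5886 (permutation p = 0.0417, adjusted p = 0.304, rho = −0.5944, permutation p = 0.0462, r = −0.5904 without the 2 farthest cows). Of the 28 relations of HSPA5 and XBP1 to marker lists and array measures, 0 were past an adjusted permutation p of 0.05 (lowest 0.304). The part of cell composition in the values of the 8 genes was not tested.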

How the data were processed

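MG RNA of 12 cows (6 CONT, 6 REST) was measured on one-color arrays. The authors extracted spot intensities with Feature Extraction 11.0.1.1, per the file headers, and the deposited intensity values are background-corrected without normalization between arrays. The deposited matrix holds the same values. The authors' test results are not part of the files. The authors reported differentially expressed genes between the diets after a Westfall-Young adjustment, while no probe passed it here. The cause of this difference was not tested. From 43803 non-control spots, outlier spots were dropped, signals were scaled to each array's 75th percentile on the log2 scale and averaged per probe, and 205 of 43653 probes missed a value on at least 1 array. Of these probes, 26832 were named through RefSeq accessions. The array design and the RefSeq table use different assemblies, so no positions are given.

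Groups were compared with limma 3.58.1 (R 4.3.3; lmFit and eBayes, two-sided, all 12 arrays, no covariate), with Westfall-Young adjustment over 100 distinct assignments of the cows (lowest adjusted p possible 0.01), Benjamini-Hochberg values beside it and a threshold of 0.05. The scripts were tested on simulated data. Single probes were tested by exact permutation over all 924 assignments, and correlations with 100000 permutations (SciPy 1.17.1). Alternatives were quantile normalization, normexp background correction (offset 50), the matrix values, a filter on dim probes, kept outlier spots, a trend of the variance with intensity, slide as a block, the mean over probes and leaving out each cow. The relations to marker lists and array measures, the correlations within groups, the ranking from other probes and slide as a block for the lists were added after seeing the data. Named are all listed genes, in each pathway list the genes with an unadjusted p under 0.05 besides PDIA3, RPN1, RPN2, GANAB and PPIB, the 5 genes most like HSPA5 and XBP1, and the extremes of a list. The extremes of the pathway lists, FKBP2 and MANF were named after their values were seen. The genes and lists were chosen with earlier results of these data known. The B cell marker list is not reported here, although its relations are among the 28 computed.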

Additional observations from a re-analysis of the deposited data

Results flagged for a closer look

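Among the 44 groups of 6 cows screened (22 probes, each in CONT and REST), 1 held a cow that stood apart from the other 5, where chance alone gives about 2.2. For DNAJC3, CONT cow 6 had a log2 level of 1.90, while the other CONT cows were at 3.23 to 3.93, and the gap made up 0.657 of the group's range, above Dixon's limit for 6 values. The same cow had the lowest CONT level for HSPA5 (5.03), HSP90B1 (5.10), PDIA4 (2.57), DNAJB9 (0.93), HERPUD1 (1.16) and XBP1 (5.68). Its array had 76.0% of probes well above background, the highest share of the CONT arrays.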

How the results depend on the processing

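No gene of the 8 was past an adjusted p of 0.05 under any setting run. Of 160 log2 differences computed under alternatives, 125 had another value than the reported one, since the matrix values, the dim-probe filter, the variance trend and kept outlier spots left those of these genes as they were, and the mean over probes those of genes with a single probe. Of the 125, 113 kept their direction and 12 turned it, all for genes with a difference near 0 or with disagreeing probes. XBP1 was 0.0302 with normexp and 0.0523 with slide as a block, and −0.0871 to 0.0826 when single cows were left out. PDIA4 was 0.0155 as the mean over its probes. Leaving out single cows gave −0.0421 to 0.186 for CALR and −0.22 (without CONT cow 6) to 0.18 for DNAJC3. The number of genes with a higher mean in REST was then 1 to 3, with 1 without CONT cow 5, CONT cow 6, REST cow 1 or REST cow 5, and their median −0.29 to −0.08. The number of all probes with an unadjusted limma p under 0.05 was 1143, 377 with normexp, and 825 to 1739 when single cows were left out, highest without REST cow 6, and the cause was not tested.

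Of 112 correlations under alternatives, 94 kept direction and side of the threshold, 8 lost it, 7 gained it and 3 turned direction: HSP90B1 and XBP1 at −0.0033 with slide means subtracted, and PDIA4 and XBP1 at −0.013 and HERPUD1 and XBP1 at −0.21 without the 2 farthest cows. The count of pairs past the threshold was 8, against 3 without those cows, where 10 cows remained, 6 with Spearman, 10 with slide means subtracted and 12 with group means subtracted.

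No paired analysis was run, because the groups hold different cows and nothing in the labels ties them into pairs. The labels give every cow the same replicate number, and the cow numbers used here follow the order of the samples. The counts of promoter motifs were not run. The precision is limited by 6 cows a group.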

Other observations

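Within the groups, 8 of 56 correlations between pairs of the 8 genes were past an adjusted exact permutation p of 0.05 by Pearson r, and 0 by rank (lowest adjusted p 0.117). The count by rank is limited by the 6 cows. HSPA5 and HERPUD1 had the same rank order in CONT (exact permutation p = 0.00278) and an adjusted p of 0.117. The share that passes among pairs of other genes was not computed within the groups. Whether the counts are particular to these genes is therefore not known. Of the 8, 7 were in CONT: those of HSPA5 with PDIA4, DNAJC3 and HERPUD1, of PDIA4 with HSP90B1, DNAJC3 and HERPUD1, and of DNAJC3 with HERPUD1. The remaining 1, HSPA5 with PDIA4, was in REST. The median r over the 28 pairs was 0.8287 in CONT (0.3884 to 0.9672) and 0.5038 in REST (−0.1958 to 0.959). The difference between the groups was not tested, and 6 cows are too few to repeat these values without the farthest cows. CONT cow 6, which had the lowest CONT level of 7 of the 8 genes and stood apart for DNAJC3, is part of all CONT values.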
